A study of Mus musculus with 13 samples.

Results

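Dbp, Tef and Nfil3 encode basic leucine zipper (bZIP) transcription factors of the circadian clock's output, and their transcripts were followed in mouse aorta over 48 h in constant darkness. Every probe set that the platform annotation assigns to these 3 genes was taken, which gave 3 of 8251 genes and 4 of 12422 probe sets: 160841_at for Dbp, 160117_at for Tef, and 101805_f_at and 102955_at for Nfil3. All 4 passed the filter on dim probe sets, which kept 7453. The aortae came from c57/Bl6 mice kept for 2 weeks under a light cycle (12 h lit, 12 h dark) before 36 h of constant darkness. Collection followed every 4 h at 12 circadian times, CT18 to CT62, with 6 aortae in each pool. Each pool was measured on 1 oligonucleotide array, except CT18, which had 2 arrays that were averaged as 1 pool because the labels do not say whether they share RNA. Sex and age are not given in the labels used here, no gene was altered and no agent was given. By the labels, every pool shares strain, darkness and tissue, and the groups differ in time alone.

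Dbp and Tef belong to the PAR bZIP family, named for a region rich in proline and acidic residues beside the basic domain. They activate genes through a DNA element called the D-box. Nfil3 (also known as E4BP4) binds the same element and represses. In mouse liver and other tissues, transcription of Dbp is driven through E-boxes by the Clock and Bmal1 (Arntl) complex, and Nfil3 is repressed by REV-ERB nuclear receptors (Nr1d1 and Nr1d2) and activated by ROR receptors through related sites. D-boxes in turn occur in clock genes of the Period and nuclear receptor families, so the activators and the repressor feed back on the clock.

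The promoter windows of the 3 genes are shown because those of Tef and Nfil3 hold the letters of 2 of these elements, while that of Dbp holds none of the letters searched. Sequences are from RefSeq on build GRCm38.p6, read 5′ to 3′ on the gene's strand, and run from 250 bases before a start site to 50 after it. All 3 genes were found in that table, Tef with 2 start sites. The Dbp window lies at chr7:45704997-45705296 on the plus strand, the Tef windows at chr15:81802423-81802722 and chr15:81811164-81811463 on the plus strand, and the Nfil3 window at chr13:52980990-52981289 on the minus strand. The listed span of Nfil3 reaches chr13:52982878, upstream of this window, and that of Dbp begins at 45705100, inside its window. Start sites other than those of the windows were not examined. Capitals mark a motif found on either strand.
Dbp: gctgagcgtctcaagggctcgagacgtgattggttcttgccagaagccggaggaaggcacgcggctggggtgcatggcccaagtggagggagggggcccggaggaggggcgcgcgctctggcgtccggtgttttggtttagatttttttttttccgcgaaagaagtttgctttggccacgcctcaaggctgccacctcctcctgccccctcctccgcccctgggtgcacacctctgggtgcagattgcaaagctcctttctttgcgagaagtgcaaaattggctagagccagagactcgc
Tef, first window: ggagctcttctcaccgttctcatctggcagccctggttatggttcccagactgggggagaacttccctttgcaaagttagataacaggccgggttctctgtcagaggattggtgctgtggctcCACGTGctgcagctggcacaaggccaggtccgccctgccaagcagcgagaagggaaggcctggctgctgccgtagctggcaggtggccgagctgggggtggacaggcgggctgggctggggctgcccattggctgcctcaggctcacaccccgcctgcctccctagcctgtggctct
Tef, second window: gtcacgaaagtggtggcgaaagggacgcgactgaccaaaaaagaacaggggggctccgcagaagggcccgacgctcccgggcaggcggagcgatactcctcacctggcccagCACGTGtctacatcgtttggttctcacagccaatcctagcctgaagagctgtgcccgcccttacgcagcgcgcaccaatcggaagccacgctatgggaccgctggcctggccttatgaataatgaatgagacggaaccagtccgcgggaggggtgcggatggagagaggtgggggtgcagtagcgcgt
Nfil3: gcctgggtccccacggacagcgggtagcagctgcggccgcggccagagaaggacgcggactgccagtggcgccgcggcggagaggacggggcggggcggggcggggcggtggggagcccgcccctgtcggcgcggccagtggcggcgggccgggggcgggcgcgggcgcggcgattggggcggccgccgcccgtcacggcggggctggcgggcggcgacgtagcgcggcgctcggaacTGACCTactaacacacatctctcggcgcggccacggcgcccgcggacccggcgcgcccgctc

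The letters searched on both strands were the E-box CACGTG, its variant CACGTT, the D-boxes TTATGTAA and TTACGTAA, and AGGTCA, the half-site of REV-ERB and ROR receptors; none overlapped another in these windows. Both Tef windows held CACGTG, which began 127 and 138 bases before the start site, and 7.15% of all 32851 windows in the table held it. The Nfil3 window held TGACCT, the reverse complement of AGGTCA, beginning 12 bases before the start site, as 16.3% of all windows held AGGTCA on either strand. The Dbp window held none of the 5. Across all windows CACGTT was found in 4.68%, TTATGTAA in 0.938% and TTACGTAA in 0.119%. These matches describe letters in 300-base windows and are not binding sites.

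Values are the deposited intensities on a linear scale, in arbitrary units, which can be negative. For fits they were set to at least 36.7, the 20th percentile of all positive values, and expressed as log2, and a pool at this floor has only an upper bound. Over the 13 arrays, 21.3% to 24.2% of intensities were at or below 0, and 4.01% to 6.02% of the probe sets kept lay at the floor. The mean trimmed by 2% at each end was 200.2 on every array. Most smooth muscle markers were high, with Acta2 (smooth muscle actin) at 3783 to 6848 and Myh11 (smooth muscle myosin) at 1351 to 1957. Of 6 such markers on the array, 5 passed the filter, and Smtn was at the floor in 11 of 12 pools. Endothelial markers passed in 7 of 7, with Cdh5 (VE-cadherin), the brightest by median, at 439.8 to 918.9. Others were dimmer: Pecam1 read 39.25 to 103.8, and Cldn5 27.68 to 551.7 with 1 pool at the floor. Fat was present as well, since Adipoq (adiponectin) read 8123 to 9898 and Ucp1, the uncoupling protein of brown fat, 5898 to 10110. In a whole tissue, fewer cells of a type and less RNA per cell cannot be told apart.

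Dbp was high at circadian times 6 and 10 and no higher than 70.7 in the rest of the cycle. At circadian time 6 its intensity was 249 on the first day (CT30) and 416 on the second (CT54). At circadian time 10 it was 442 (CT34) and 445 (CT58). It had dropped to 34.2 (CT38) and 70.7 (CT62) at circadian time 14, and it read -20.1 (CT18) and -21.6 (CT42) at circadian time 18. At circadian time 22 the pools read -67.0 (CT22) and -104 (CT46), and at circadian time 2 they read -50.0 (CT26) and -13.7 (CT50). The 4 pools of circadian times 6 and 10 thus lay above all 8 others, and 7 of the 12 pools were at the floor. The mean at circadian time 10, 443 ± 2.17 (SD, n = 2 pools), was at least 12.1-fold above circadian time 22, whose pool mean did not reach the floor.

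A 24-h cosine fitted to the log2 values of Dbp had an amplitude, from mean to peak, of 1.95 ± 0.30 (SE, 12 pools) and a peak at 8.46 ± 0.59 h of circadian time. Its R2, the share of the variation between pools taken up by the curve, was 0.782, and it passed the threshold of 0.05 (limma, Benjamini-Hochberg adjusted p = 0.0410 over 7453 probe sets). In all, 26 probe sets (0.349%) passed, and Dbp was 1 of these. The call for Dbp depended on the filter on dim probe sets, since without that filter the adjusted p was 0.193 (limma). Dbp passed the filter on its mean, 6.40 on the log2 scale, although 7 of the 12 pools lay at the floor. A stricter filter removed it. Among the 7453 probe sets kept, the fitted amplitude of Dbp ranked 2. The size rests on the floor: it was 1.50 with the floor at the 30th percentile (adjusted p = 0.0590), 2.66 with the floor at the 10th percentile, and 3.61 with a generalised logarithm that has no floor (adjusted p = 0.00225). On linear intensities, also without a floor, the amplitude was 261 ± 35.3 units (adjusted p = 0.0268). Leaving out a single time point ended the call for 9 of the 12 time points, and the adjusted p over all these fits and those without either CT18 array ran from 0.0187 to 0.119.

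Tef was measured above the floor in every pool and was highest from late subjective day into early subjective night. At circadian time 6 its intensity was 203 (CT30) and 455 (CT54), and at circadian time 10 it was 689 (CT34) and 695 (CT58). It read 434 (CT38) and 682 (CT62) at circadian time 14, then 194 (CT18) and 160 (CT42) at circadian time 18. The lowest value was 52.1 at CT46, whereas CT22, the pool of the same circadian time on the first day, read 226. At circadian time 2 the pools read 208 (CT26) and 223 (CT50). Both circadian time 10 pools were above every other pool, by a small margin over CT62. The mean at circadian time 10, 692 ± 4.28, was 4.97-fold that at circadian time 22, 139 ± 123 (SD, n = 2 pools each). The fitted amplitude was 1.26 ± 0.23 with a peak at 10.5 ± 0.71 h, and R2 was 0.708. The rhythm did not pass the threshold (limma, adjusted p = 0.0846), except without CT22 (0.0470) or without CT30 (0.0385).

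Nfil3 ran the opposite way, with its highest means at circadian times 18 and 22. In 101805_f_at, whose suffix marks probes that can hybridise to related sequences, the pools read 282 (CT18) and 363 (CT42) at circadian time 18, and 318 (CT22) and 285 (CT46) at circadian time 22. They remained at 228 (CT26) and 270 (CT50) at circadian time 2. At circadian time 10 they were down to 52.3 (CT34) and 36.7 (CT58), and at circadian time 14 they read 95.3 (CT38) and 214 (CT62). The pools of circadian time 6 disagreed, at 260 (CT30) against 12.7 (CT54), a gap of at least 7.07-fold since CT54 was below the floor. The mean at circadian time 18, 322 ± 57.2, was at least 7.25-fold that at circadian time 10, 44.5 ± 11.0 (SD, n = 2 pools each), a lower bound since CT58 was at the floor. The fitted amplitude was 1.36 ± 0.29 and the peak 21.3 ± 0.82 h (R2 = 0.646, limma, adjusted p = 0.140). Without CT30 the adjusted p was 0.0260 and the amplitude 1.63, and no other setting brought this probe set past the threshold.

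The other Nfil3 probe set, 102955_at, carries no such mark and also had its highest means at circadian times 18 and 22. It read 160 (CT18) and 224 (CT42) at circadian time 18, and 287 (CT22) and 170 (CT46) at circadian time 22. At circadian time 2 it read 164 (CT26) and 67.8 (CT50). Its lowest pools were those of circadian time 6, at 39.8 (CT30) and 35.6 (CT54). At CT30 this probe set was thus near its minimum, while 101805_f_at read 260, against 363 in its highest pool (CT42). It rose again to 67.1 (CT34) and 90.6 (CT58) at circadian time 10, and to 182 (CT38) and 114 (CT62) at circadian time 14. The mean at circadian time 22, 228 ± 83.1, was at least 5.97-fold that at circadian time 6, 37.7 ± 2.92 (SD, n = 2 pools each), a lower bound since CT54 was below the floor. The fitted amplitude was 1.13 ± 0.20 with a peak at 19.0 ± 0.67 h (R2 = 0.755, limma, adjusted p = 0.0668). It passed the threshold only without CT26 (0.0340), among the alternatives run. Whether the difference at CT30 comes from the probes of either set was not tested.

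**Figure D1:**
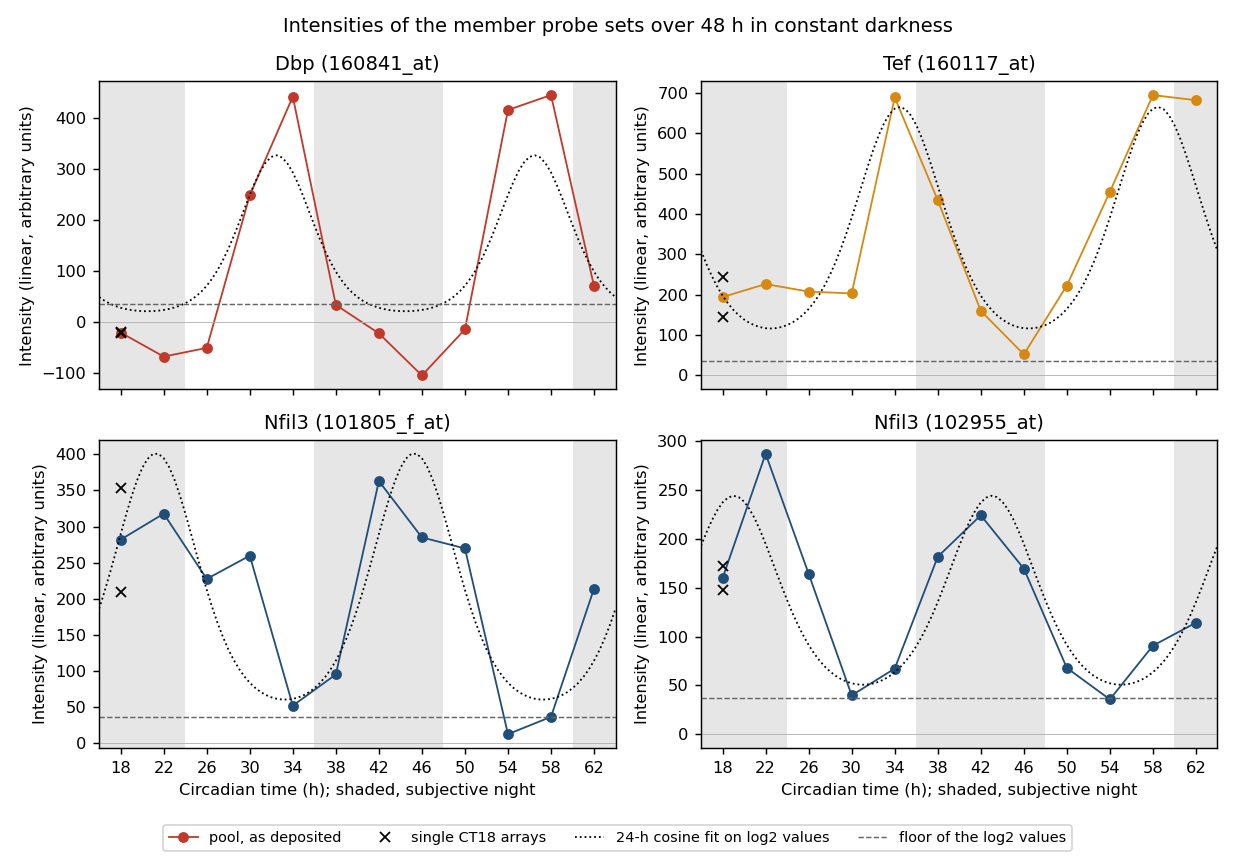
Deposited intensity (linear, arbitrary units) of each member probe set against circadian time in hours, with 1 filled point per pool, crosses for the single CT18 arrays, a dotted 24-h fit and a dashed line at the floor of 36.7. Dbp is above the floor in 5 of 12 pools, and Tef is highest at CT34, CT58 and CT62. Both Nfil3 probe sets have their highest means at circadian times 18 and 22, although single pools at other times read as high in 102955_at.

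The amplitudes of these 4 probe sets stood high among all probe sets. All 4 had fitted amplitudes above 1, as did 0.751% of the 7453 probe sets, whose median amplitude was 0.18; this limit was chosen after the values were seen. By amplitude, Dbp ranked 2, Nfil3 11 (101805_f_at) and 29 (102955_at), and Tef 19. By unadjusted p, Dbp ranked 18, Nfil3 94 (101805_f_at) and 37 (102955_at), and Tef 45. The spread between pools of the same circadian time, as an SD on the log2 scale, was 0.35 for Dbp, where 3 of the 6 pairs lay at the floor throughout. It was 0.73 for Tef, 0.91 for 101805_f_at and 0.51 for 102955_at. The duplicate CT18 arrays read 245 and 144 for Tef, 354 and 210 for 101805_f_at, and 148 and 172 for 102955_at. These are gaps of 1.70-fold, 1.69-fold and 1.17-fold, against a median gap of 1.14-fold and a 90th percentile of 1.74-fold over all probe sets kept.

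The order of the peaks was taken from the same fits, with the covariance of the residuals over the 12 pools in the error of each difference. Nfil3 peaked 12.8 ± 0.94 h after Dbp by 101805_f_at (SE, 95% interval 10.7 to 14.9 h) and 10.6 ± 0.88 h after it by 102955_at (8.59 to 12.6 h). A gap of 12 h, which is opposite phase in a 24-h cycle, lay inside both intervals as fitted. For 102955_at the gap moved with the treatment of low values, and 7 of the 12 Dbp pools lay at the floor. It was 9.78 ± 0.64 h with the generalised logarithm and 10.2 ± 0.79 h with the floor at the 10th percentile. With the floor at the 30th percentile it was 11.0 ± 1.04 h, and on linear intensities 10.7 ± 1.01 h. Opposite phase is thus less sure for this probe set. After Tef, Nfil3 peaked by 10.8 ± 1.12 h (8.27 to 13.4 h) and 8.57 ± 1.20 h (5.85 to 11.3 h), so the second interval stops short of 12 h. Tef peaked 2.00 ± 1.13 h after Dbp, with an interval from -0.56 to 4.57 h that leaves their order unresolved. The Nfil3 probe sets differed by 2.24 ± 1.29 h, with 102955_at earlier and an interval from -5.17 to 0.69 h.

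Against clock genes of the same circuit, the members fell into 2 phases. Regulation of the members in aorta was not tested. Dbp peaked 3.04 ± 0.93 h after Nr1d1 and -5.02 ± 0.81 h relative to Per2, a repressor of the Clock and Bmal1 complex, where a minus sign means earlier. Its difference from Nr1d2 was -0.84 ± 0.71 h (95% interval -2.45 to 0.77 h). Tef peaked 1.17 ± 0.73 h after Nr1d2 (-0.47 to 2.81 h) and -3.01 ± 0.70 h relative to Per2. Nfil3 by 101805_f_at differed from Arntl by -0.82 ± 1.11 h (-3.33 to 1.69 h), and from Cry1, a further repressor, by 2.83 ± 1.17 h (0.19 to 5.48 h). By 102955_at it differed from Arntl by -3.06 ± 1.20 h (-5.78 to -0.34 h) and from Cry1 by 0.60 ± 0.68 h (-0.94 to 2.13 h). Relative to Nr1d2, a repressor of Nfil3 in mouse liver, Nfil3 peaked 12.0 ± 0.94 h later by 101805_f_at and 9.74 ± 0.73 h later by 102955_at. Of these clock genes, Nr1d2 and Per2 passed the rhythm test, and the times of the others come from fits that did not.

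**Figure D2:**
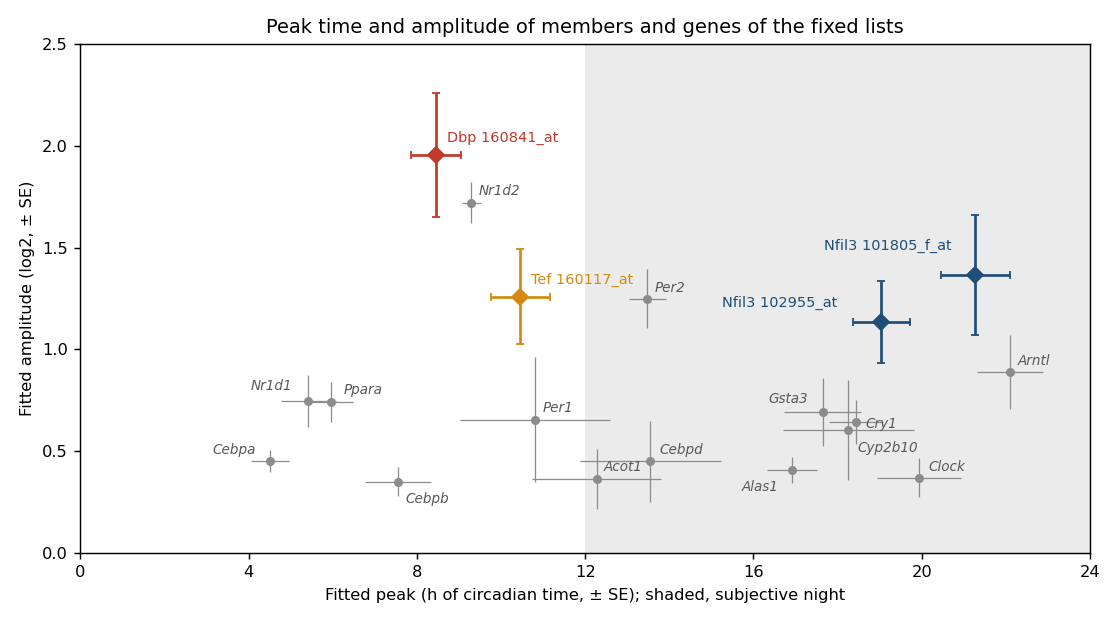
Fitted amplitude (log2) against fitted peak in hours of circadian time, with SE bars from 12 pools, for the member probe sets (diamonds) and for genes of the 5 related lists whose amplitude was at least 2 SE (grey). Dbp and Tef lie at 8.46 and 10.5 h near Nr1d2, and the Nfil3 probe sets lie at 19.0 and 21.3 h between Cry1 and Arntl.

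Set as groups of 6 pools each, subjective day (circadian times 2, 6 and 10) against subjective night (14, 18 and 22), none of the 4 passed the test. For Dbp the lowest, median and highest intensities were -50.0, 332 and 445 in subjective day, against -104, -20.8 and 70.7 in subjective night. In 4 of 6 day pools Dbp exceeded every night pool, and the groups overlapped because both pools of circadian time 2 were at the floor. The log2 difference, day minus night, was 2.08 ± 0.64 (limma, SE, adjusted p = 0.321). For Tef the values were 203, 339 and 695 in subjective day, against 52.1, 210 and 682 in subjective night, with a difference of 0.71 ± 0.54 (limma, adjusted p = 0.745). The peak of Tef lies near the border between the groups, and its early night pools were among its highest.

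For Nfil3 the sign was the other way. In 101805_f_at the values were 12.7, 140 and 270 in subjective day, against 95.3, 283 and 363 in subjective night. The difference was -1.22 ± 0.57 (limma, adjusted p = 0.560). In 102955_at they were 35.6, 67.5 and 164 in subjective day, against 114, 176 and 287 in subjective night, a difference of -1.42 ± 0.34 (limma, adjusted p = 0.156). By either probe set 4 of 6 night pools exceeded every day pool, and the groups overlapped. Without CT26, the day pool at 164, the adjusted p of 102955_at was 0.0499. Over all probe sets 10 (0.134%) passed this test, and the groups did not overlap in 0.926%.

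**Figure D3:**
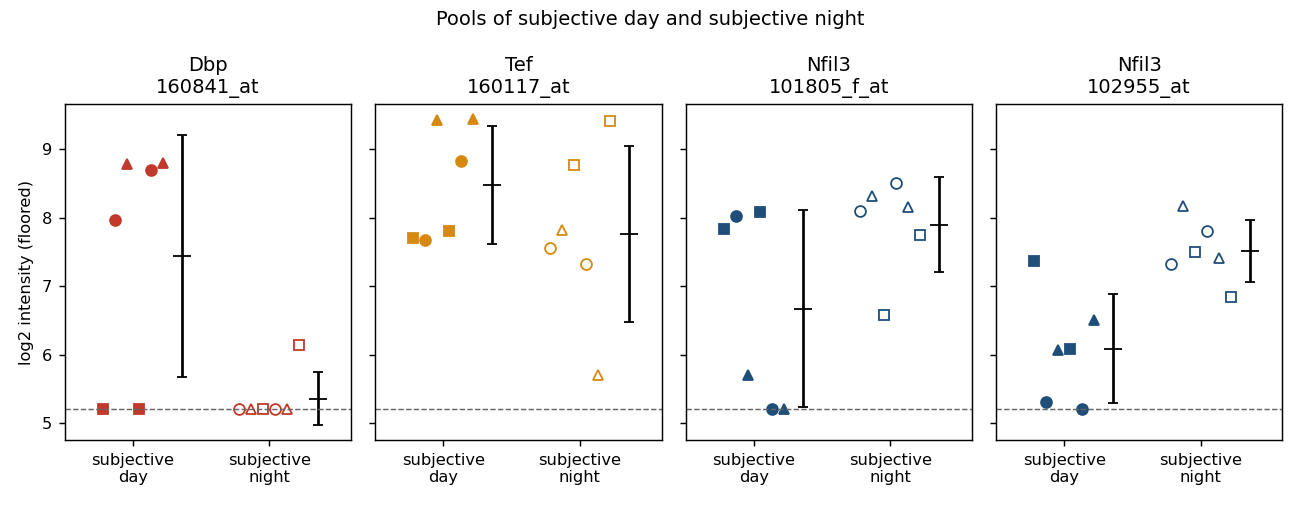
Floored log2 intensity of each member probe set in the 6 pools of subjective day (filled) and the 6 of subjective night (open), with squares, circles and triangles for the circadian times in order within each group, black bars for mean ± SD, and a dashed line at the floor. Day and night pools overlap in all 4 probe sets.

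The second day of collection (CT42 to CT62) was compared with the first (CT18 to CT38). Both followed the 36 h of constant darkness, and the comparison asks whether levels or rhythms changed as the mice spent longer without light. No member passed the test on mean levels. The second-day mean minus the first-day mean was 0.28 ± 0.44 for Dbp, -0.07 ± 0.34 for Tef, -0.28 ± 0.42 for 101805_f_at and -0.32 ± 0.28 for 102955_at (log2, SE; limma, adjusted p from 0.801 to 0.971). Over all probe sets 0 (0%) passed, with 562 at an unadjusted p under the threshold. The amplitude of Tef was 1.77 on the second day and 0.78 on the first, and that of 101805_f_at was 1.81 and 1.14. For Dbp it was 2.08 and 1.84, and for 102955_at 1.15 and 1.18. None of these differences in rhythm passed (limma, adjusted p from 0.734 to 0.981), again with 0 (0%) of all probe sets, and 520 at an unadjusted p under the threshold. Fitted within each day, the peak on the second day and on the first was at 8.61 and 8.29 h for Dbp and at 10.1 and 11.4 h for Tef. It was at 20.1 and 23.2 h for 101805_f_at and at 18.1 and 19.9 h for 102955_at.

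Genes of the same circuit were followed in 5 lists, each gene by its brightest probe set. Of 8 clock genes with D-boxes, 7 were measured and 2 passed the rhythm test, as did 0.349% of all probe sets, Nr1d2 (amplitude 1.72 ± 0.10, adjusted p = 1.19e-05) and Per2 (1.25 ± 0.14, adjusted p = 0.00897). The median amplitude of the 7 was 0.65, against 0.18 over all probe sets kept. Of 14 genes that depend on PAR bZIP factors in mouse liver and brain or are thought to be their targets, 8 passed the filter and 2 of these passed the test (0.349% over all probe sets). Ppara, the receptor that controls fatty acid oxidation, peaked at 5.96 ± 0.51 h (0.74 ± 0.10, adjusted p = 0.0173), ahead of both activators. Alas1, the first enzyme of haem synthesis, peaked at 16.9 ± 0.59 h (0.41 ± 0.06, adjusted p = 0.0410), after both. The other 6 did not pass, among them Pdxk, which makes the active form of vitamin B6 (0.05 ± 0.10), and Gsta3, a glutathione transferase (0.69 ± 0.17, peak 17.7 h, adjusted p = 0.227). The median amplitude of this list was 0.39.

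Upstream, 1 of 8 E-box regulators passed (Per2), with a median amplitude of 0.50. Of 3 regulators acting through REV-ERB and ROR sites, 1 passed (Nr1d2). Over all probe sets 0.349% passed, and Per2 and Nr1d2 were already counted among the clock genes with D-boxes. Rora, an activator of Nfil3 in liver, had an amplitude of 0.07 ± 0.12. Among 5 bZIP relatives on the array, which bind related DNA elements, 4 passed the filter. Of these 4, 1 passed the test (0.349% over all probe sets). This was Cebpa, a factor of adipocytes, with a peak at 4.50 ± 0.46 h (0.45 ± 0.05, adjusted p = 0.0101). The median amplitude of these 4 was 0.40. Hlf, the third PAR bZIP factor, was not analysed here.

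The profiles most like each member over the 12 pools were found among 5652 other genes by Pearson's r on floored log2 values, a description in which all points share the same arrays. For Dbp they were Il10rb, a subunit of the interleukin 10 receptor (r = 0.890), Mtmr10 of the myotubularin family (0.886), and Zfp36l2, a factor that promotes mRNA decay (0.875). Spearman's rho, taken on ranks, was 0.717, 0.858 and 0.795 for these genes in the same order. Only Zfp36l2 of these passed the rhythm test (amplitude 0.68 ± 0.09, peak 7.47 h, adjusted p = 0.0130), and a dimmer probe set of the same gene did not (0.41 ± 0.28, adjusted p = 0.762). For Tef they were Trappc10, a vesicle tethering subunit (r = 0.946), Lpl, the lipoprotein lipase (0.944), and Atp13a1, a P-type ATPase (0.922), with rho of 0.881, 0.937 and 0.797. Their fitted amplitudes were 0.23, 0.25 and 0.60, and none passed (adjusted p from 0.100 to 0.492). For Nfil3 by 101805_f_at they were Epb41l4a (r = 0.883), Creld2, a protein of the endoplasmic reticulum (0.881), and Ang, the ribonuclease angiogenin (0.866), and none passed (adjusted p from 0.347 to 0.668). Their rho values were 0.879, 0.886 and 0.585, so the likeness of Ang was weaker by rank. A dimmer probe set of Epb41l4a peaked at 3.84 h instead of 21.8 h, without passing.

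Markers of tissues that lie beside the aorta differed between pools. For fast skeletal muscle, 8 of 8 markers passed the filter, and their summed intensity was 4988 to 23500 in subjective day pools and 8432 to 17780 in subjective night pools. It was highest at CT34 (23500), CT18 (17780) and CT58 (16610). Dbp and Tef peaked at CT34 and CT58, and at CT18 Dbp was below the floor and Tef at 194. At CT54, where the muscle sum was lowest (4988), Dbp read 416 and Tef 455. The part of muscle in these values was not tested, other than by a fit with marker profiles as covariates. For thymocytes, 5 of 7 markers passed and Rag2 and Cd3e were mostly at the floor. Their sum was 306 to 3946 in day pools and 161 to 3705 in night pools. For cardiac atrium, 4 of 5 passed and Sln was at the floor in 7 pools, with sums of 3145 to 5582 in day pools and 3486 to 10430 in night pools. The adipocyte sum, from 5 markers, was 23890 to 27530 in day pools and 22100 to 24920 in night pools.

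No marker of these lists, nor of smooth muscle or endothelium, passed the rhythm test. With the mean muscle, thymocyte and atrial profiles as covariates, the amplitude was 2.00 ± 0.36 for Dbp (adjusted p = 0.156) and 1.39 ± 0.46 for Tef (0.382). It was 1.58 ± 0.48 for 101805_f_at (0.353) and 1.00 ± 0.22 for 102955_at (0.323). The amplitudes were thus of similar size with wider errors, and no member passed in that fit. The peak of 101805_f_at was then 18.3 h.

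**Figure D4:**
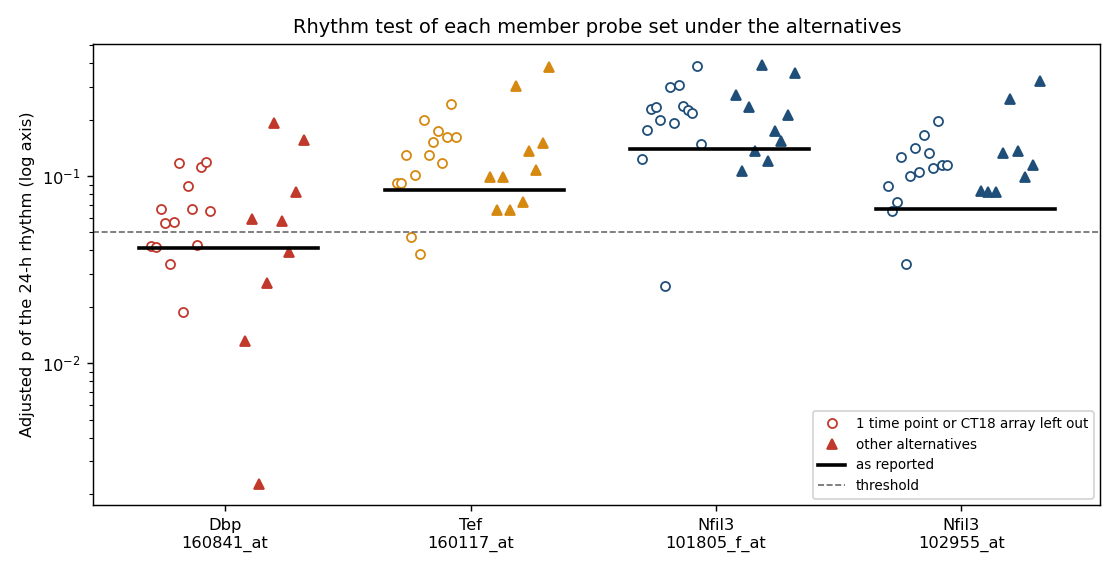
Adjusted p of the 24-h rhythm (log axis) for each member probe set, as reported (black line), with 1 time point or CT18 array left out (open circles) and under the other alternatives (triangles); the dashed line is the threshold of 0.05. Dbp lies on both sides of the threshold, and Tef and the Nfil3 probe sets lie above it in nearly all fits, with 2, 1 and 1 exceptions.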

How the data were processed

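For each array the authors deposited 1 linear intensity per probe set. Nothing was assumed of the software, background correction and scaling, which are steps not given in the sources used here. The equal trimmed means show that the arrays had been scaled, so the deposited intensities were used as they stood. Of 12488 probe sets in the table, 66 hybridisation controls were left out. Genes were taken from the platform annotation table, which assigns 10833 probe sets to 1 gene.

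Intensities below the floor of 36.7 were set to it, log2 was taken and the CT18 arrays were averaged. Probe sets with a mean at or above the 40th percentile (log2 of 5.60) were kept. Models were fitted to all of these with limma 3.58.1 in R 4.3.3 (eBayes with an intensity trend, Benjamini-Hochberg adjustment, threshold 0.05). They had terms for the cosine and sine of 24 h (9 residual degrees of freedom), for subjective day against night (10), for the second day (8), and for rhythm by day (6). SEs of peak times came from the delta method. The fits were tested on simulated data with normal noise and no values tied at the floor, so that test does not cover profiles like that of Dbp. With a single pool at each time, the error behind every p-value is the scatter of pools about a curve or group mean, and the number of arrays limits precision.

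The members and lists were chosen with earlier results of these data known. The genes named are all member probe sets, the 3 genes most correlated with each member, and of each list up to 4 members past the threshold or the 1 with the smallest p; Rora, Pdxk, Gsta3 and the clock genes Nr1d1, Cry1 and Arntl were added after their values were seen. The alternatives were other floors, a generalised logarithm, linear values, other filters, centring, quantile normalization, no variance trend, tissue covariates, leaving out each time point or CT18 array and, added after seeing the data, circadian time as a block in the second-day test.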

Additional observations from a re-analysis of the deposited data

Results flagged for a closer look

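Among the 6 pools of subjective night, the Dbp probe set 160841_at had 1 pool apart from the rest, CT62, at an intensity of 70.7. The other 5 night pools were all at or below the floor of 36.7 and so are tied on the floored scale, which by itself makes the gap the whole range. On the deposited intensities the gap was 0.211 of the range, under Dixon's 95% critical value for 6 pools, and none of the 8 groups of 6 pools examined exceeded it. The rate of about 1 in 20 groups that chance marks does not apply to tied values. The pool of the same circadian time on the first day, CT38, read 34.2.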

How the results depend on the processing

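The 24 alternatives comprise 10 settings and 14 fits without 1 time point or CT18 array; Dbp and 102955_at did not pass the filter at the 60th percentile and have no value there. Fitted peaks of all 4 probe sets stayed within 6 h of those reported in every fit run. The Dbp rhythm lost its call with the floor at the 30th percentile (adjusted p = 0.0590), no filter (0.193), centring on medians (0.0577), no variance trend (0.0820) and tissue covariates (0.156). Without 1 time point or CT18 array, the adjusted p was 0.0187 to 0.119 for Dbp, 0.0385 to 0.243 for Tef, 0.0260 to 0.386 for 101805_f_at and 0.0340 to 0.196 for 102955_at. Probe sets passing the rhythm test numbered 12 on linear values, 4 without a filter, 5 after centring, 4 without a variance trend, 9 with tissue covariates, and 8 to 40 when 1 time point or array was left out. For day against night the counts were 4, 1, 17 (quantile normalization), 6 (no trend), 5 (covariates) and 3 to 18, the first 2 on linear values and without a filter. The second-day test called 1 with covariates and 0 to 2 when a time point or array was left out, and the rhythm-by-day test 0 throughout. The peak of 101805_f_at came 11.7 h after Dbp with the generalised logarithm and 8.87 h after it with tissue covariates, against 12.8 h as reported and 12.1 to 13.2 h when 1 time point or array was left out. That of 102955_at came 9.78 to 11.3 h after Dbp over the alternatives, against 10.6 h as reported, and was earliest with the generalised logarithm. The second-day difference, not past the threshold in any fit, changed sign for Tef on linear values (adjusted p = 0.871), after centring (0.995) and without CT22 (0.909), CT26 (0.996) or CT46 (0.813), for 101805_f_at without CT30 (0.978), and for Dbp without CT38 (0.992). Without 1 time point or array its adjusted p was 0.792 to 0.992 for Dbp, 0.813 to 1 for Tef and 0.824 to 0.995 for 101805_f_at. The causes were not tested. Levels at the floor limit the size of the Dbp amplitude. No paired analysis was possible because each time point has 1 pool and the replicate number 1 is the only one that time points share; the 6 pairs of pools of the same circadian time could be blocked instead, an alternative chosen after seeing the data, and the second-day test (limma, 5 residual degrees of freedom) then called 0 probe sets, with 601 at an unadjusted p under the threshold and an adjusted p of 0.729 to 0.966 for the members.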
